A study of Mus musculus with 28 samples.

Results

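RNA was compared between CJ7 mouse embryonic stem cells (mESCs) in which the lysine of Elongin A that the labels call K754 had been edited to methionine (K754M) and wild-type (WT) CJ7 mESCs, across all genes of the deposited expression table. The comparison takes 4 of the 28 samples of the series, 2 K754M libraries and 2 WT libraries, and 21012 of the 37583 genes in the table reached the expression level set for testing. The other CJ7 mESC libraries carried an Elongin A lysine-to-arginine edit at the same position (K754R, 2 libraries) or were null for Eed (2 libraries). Day-5 embryoid bodies (EBs, aggregates that differentiate after LIF withdrawal) were sequenced from K754M, K754R, Eed null and WT CJ7 cells (2 libraries each). A second mESC line, CCE, was sequenced as Elongin A null cells (EloA null, 3 libraries) and WT cells (3 libraries). All mESCs were grown on mouse embryonic fibroblast feeders in serum with LIF and 2 inhibitors of MEK and GSK3 (PD0325901 and CHIR99021), at passages 15 to 26, and feeders were depleted by plating before lysis; every library was made from rRNA-depleted total RNA. The labels call the K754M line edited and do not say whether it is 1 clone or whether replicates are separate cultures, so p-values measure the spread between libraries, which may be technical.

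Elongin is a complex of the large subunit Elongin A, encoded by Tceb3, with Elongin B and Elongin C, and it raises the rate at which RNA polymerase II moves along a template. Elongin A also joins a ubiquitin ligase that acts on stalled polymerase. Polycomb repressive complex 2 (PRC2), built around Eed, Ezh2 and Suz12, is a methyltransferase best known for modifying histone H3 at developmental genes that stem cells keep silent. The title of the series joins PRC2 to methylation of Elongin A, and K754M and K754R both replace the lysine at a single position of that protein.

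Expression was given as RPKM (reads scaled by gene length and by the number of mapped reads). The depth read from the RPKM step of 1 read was 12570000 and 15272000 reads in K754M and 11049000 and 13578000 reads in WT. Every one of 8 mESC markers was present in every library, with summed levels of 2397 and 2658 RPKM in K754M and 2160 and 2458 RPKM in WT. None of 10 defining fibroblast markers was at 0 in any of these libraries, and their sums were 185 and 531 RPKM in K754M and 191 and 283 RPKM in WT, higher in replicate 2 of both groups. RNA levels do not read an amino-acid substitution, so nothing in these values checks the edit.

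No gene passed an adjusted p of 0.05 between K754M and WT mESCs (limma on log2(RPKM + 0.5) over the 8 CJ7 mESC libraries, Benjamini-Hochberg adjustment; 0% of 21012 genes). The smallest adjusted p was 0.0649, and 66 genes lay under 0.1, of which 19 were higher and 47 lower in K754M. At an unadjusted p below 0.05, 892 genes were higher (4.25%) and 1211 were lower (5.76%). The RPKM ranges of the groups did not overlap for 3921 genes higher in K754M (18.7%) and 3371 genes lower (16%). The median log2 change of all tested genes was 0.03, with quartiles of -0.19 and 0.26. Log2 changes are on the log2(RPKM + 0.5) scale, which understates changes of low genes. The precision was low: the median standard error of a log2 change was 0.27 here, against 0.12 in the CCE comparison, which has 3 libraries a group and 24321000 to 46365000 reads a library. In genes with at least 20 estimated reads over both replicates, the median variance between replicates was 20.3 times that of read sampling in K754M and 9.82 times in WT.

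Other choices of scale, genes and libraries gave calls. A pseudocount of 0.1 called 1 gene, the higher clone AL772216.14 (0.00476%). With small RNA genes, pseudogenes and clone-named genes left out of the test, 13 of 16858 genes passed (0.0771%), at adjusted p between 0.0483 and 0.0486. The 2 that rose were 1700013H16Rik and Gm17723 (0.0119%), and the 11 that fell were Gm364, Eif2s3y, Ube1y1, Cbr3, Gm514, Gpt2, Ccl25, Mrps24, Inhbe, Msh6 and Zfy1 (0.0653%). A fit that took its spread from all 14 mESC libraries, and so assumed that CJ7 libraries vary like the tighter CCE ones, called 955 of 21780 genes (4.38%), 322 higher (1.48%) and 633 lower (2.91%). That count was 338 without WT replicate 1, 774 without WT replicate 2, 825 without K754M replicate 1 and 1169 without K754M replicate 2. In the paragraphs that follow, rose and fell for K754M against WT in mESCs refer to that fit of 14 libraries. A call is said to hold when it passed with each of these 4 libraries left out in turn. These words do not mean that a gene passed in the fit of CJ7 libraries alone, where none did at 0.05. Every such call rests on the assumption of a shared spread, which was not tested. The median standard errors, 0.27 in the CJ7 fit (2 libraries a group) and 0.12 in the CCE fit (3 libraries a group), point to a wider spread in CJ7 libraries. Where the CJ7 spread is wider, the fit of 14 libraries understates it and its adjusted p-values are too small. Holding cannot check the assumption of a shared spread, because the fits with a library left out make it too.

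The 5 smallest p-values of all genes shared the adjusted p of 0.0649. Gm364, an X-linked predicted gene, had 6.53 and 9.16 RPKM in K754M against 36.6 and 33.3 RPKM in WT. 1700013H16Rik, also X-linked, had 90.003 and 105 RPKM in K754M against 32.9 and 39.8 RPKM in WT. The other three were low: clone AL772216.14 had 4.07 and 2.79 RPKM in K754M and was listed at 0 in both WT libraries, while a 5S rRNA gene and clone AL731857.1 were listed at 0 in both K754M libraries, against 1.54 and 1.88 RPKM (5S rRNA) and 1.79 and 1.45 RPKM (AL731857.1) in WT.

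Genes lower in K754M were gathered on chromosome 11, at the end of chromosome 17, near the start of chromosome 8 and on the Y chromosome. Taken along each chromosome in annotation order, a running median over 25 genes with a mean of at least 2 RPKM passed a log2 distance of 0.35 on chromosomes 11, 17 and 8. Chromosome 11 was then taken whole, and the Y chromosome, which has too few genes for such a window, was added whole with genes of any tested level. These stretches were drawn after their values were seen, and no test was made of them. On chromosome 11 the median log2 change of 875 such genes was -0.43, 811 of them lay below 0 (92.7%), 357 were lower at p below 0.05 and 2 were higher. Between Birc6 and 2610044O15Rik on chromosome 17 the median of 52 genes was -0.80, with 48 below 0 and 42 lower at p below 0.05. Between Insr and Shcbp1 on chromosome 8 all 20 genes lay below 0, with a median of -0.75 and 13 lower at p below 0.05. The 8 Y-linked genes had a median of -1.55, all 8 below 0, and 6 were lower at p below 0.05. The remaining 9216 genes at that level had a median of 0.03, with 43.9% below 0. Of these, 388 were lower (4.21%) and 397 higher at p below 0.05.

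**Figure D1:**
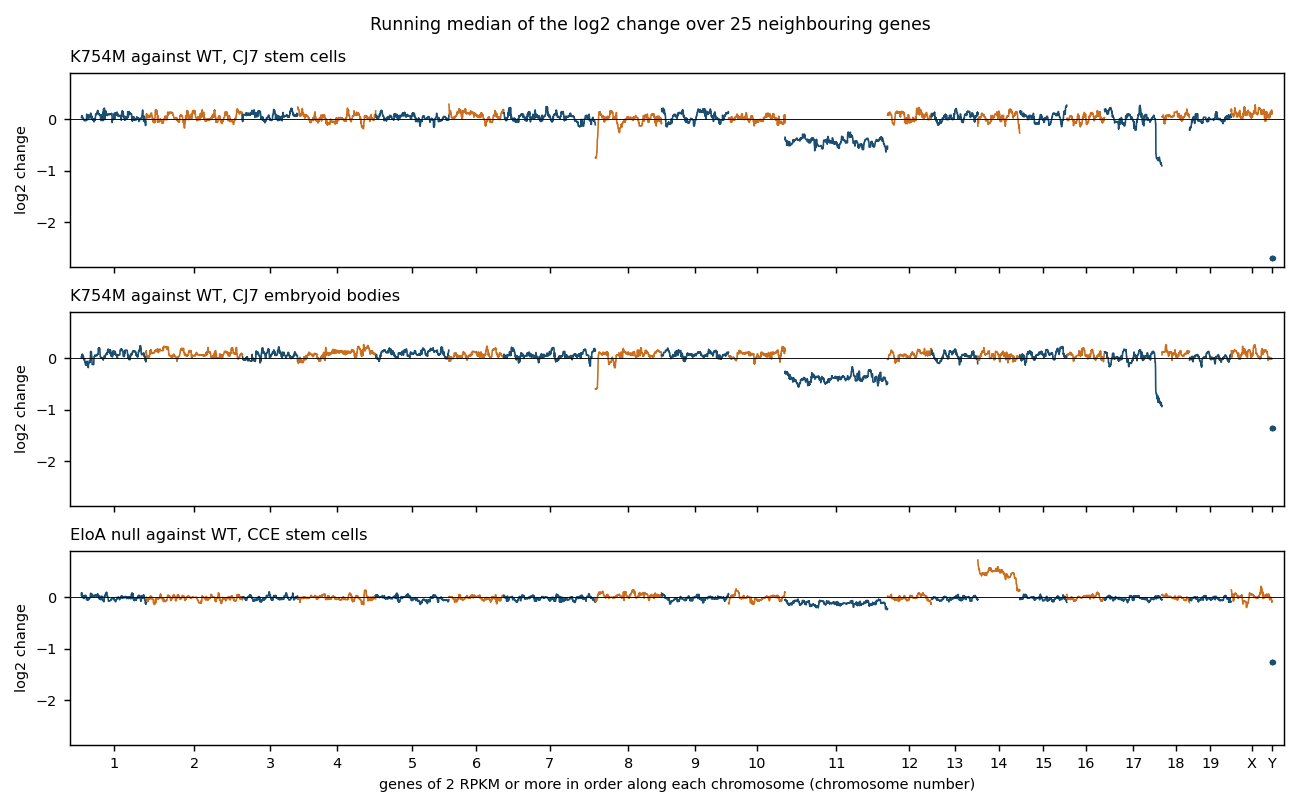
Running median of the log2 change over 25 neighbouring genes (y axis) along the chromosomes (x axis, genes in annotation order), for K754M against WT in mESCs, K754M against WT in EBs and EloA null against WT in CCE mESCs. In the K754M panels chromosome 11, the end of chromosome 17, the start of chromosome 8 and the Y chromosome lie below the rest. The mESC medians of the stretches on chromosomes 11, 17 and 8 were -0.43, -0.80 and -0.75. The 5 Y-linked genes drawn, those of at least 2 RPKM, had a median of -2.69, against -1.55 for Y-linked genes of any tested level.

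These 4 stretches held 1940 of the tested genes (9.23%), but 494 of the 1211 genes lower at p below 0.05 (40.8%) and 23 of the 892 higher ones (2.58%). Of the genes called in the fit of 14 libraries, 306 of those lower (48.3%) and 8 of those higher (2.48%) lay there. DNA copy number was not measured, and the part of gene dosage in these values was not tested. Genes that lie on a stretch are named as such.

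The stretches differed in which other libraries carried them. Against K754R cells, which share the K754M libraries with the first comparison, the chromosome 11 median was 0.01, while chromosome 17 stood at -0.75 with 52 of 52 genes below 0, chromosome 8 at -0.45 and the Y chromosome at -1.85. Against the same WT libraries, chromosome 11 had a median of -0.47 in K754R and -0.39 in Eed null cells, and the chromosome 17 genes had -0.07 in K754R and -0.08 in Eed null cells. The chromosome 8 genes stood at -0.35 in K754R and -0.64 in Eed null cells, and the Y-linked genes at 0.86 in K754R and 0.16 in Eed null cells. Over all 565 chromosome 8 genes of at least 2 RPKM, the stretch included, the median was -0.001 in K754M. It was -0.14 in K754R and -0.36 in Eed null cells, where the whole chromosome was thus lower. In EBs, whose libraries are separate, K754M against WT gave medians of -0.40 on chromosome 11, -0.83 on chromosome 17, -0.60 on chromosome 8 and -1.06 on the Y chromosome. EloA null CCE cells gave -0.12, -0.01, -0.07 and -1.22 for these stretches in the same order. Every stretch was low against WT in K754M cells at both stages. The chromosome 11 and chromosome 8 genes were also low in K754R and Eed null cells, and the chromosome 17 genes stood near 0 there. In EloA null cells the Y chromosome was the lowest of the stretches.

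**Figure D2:**
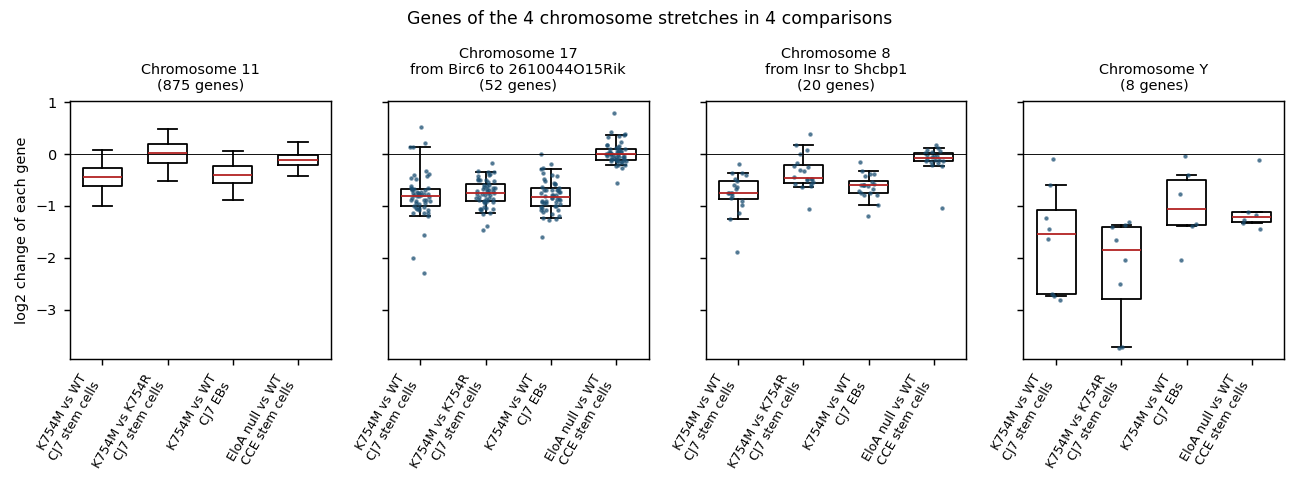
Log2 changes (y axis) of the genes on each of the 4 stretches, as boxes with whiskers at the 5th and 95th percentiles and, except for chromosome 11, 1 point per gene, for K754M against WT in mESCs, K754M against K754R in mESCs, K754M against WT in EBs and EloA null against WT in CCE mESCs. The chromosome 11 median is 0.01 against K754R and -0.43 against WT, and the chromosome 17 median is -0.01 in EloA null cells and between -0.83 and -0.75 in the 3 K754M comparisons.

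Of the 12 named genes lower in K754M, 7 lay on a stretch. Both K754R libraries also lay below both WT libraries in 10 of the 12, and both Eed null libraries in 7. All 12 fell in the fit of 14 libraries and held, but they, like the 12 higher genes described further on, were chosen by their p-values in the same K754M and WT libraries, so these calls are no added support. On the Y chromosome, Eif2s3y, a subunit gene of the translation initiation factor that carries the first tRNA, had 8.17 and 6.83 RPKM in K754M against 55.5 and 46.9 RPKM in WT (log2 change -2.69 ± 0.26, SE; limma adjusted p = 0.0649 in the CJ7 fit and 0.000377 in the fit of 14 libraries). Ube1y1, a ubiquitin-activating enzyme, had 0.421 and 0.479 RPKM in K754M against 7.74 and 4.96 RPKM in WT (log2 change -2.82). Zfy1, a zinc finger transcription factor, had 0.238 and 0.392 RPKM in K754M against 4.15 and 5.80 RPKM in WT (log2 change -2.74). All 3 were lower in both K754M libraries than in any of the 6 other CJ7 libraries. Each of these 3 has a close relative elsewhere in the genome, and how the authors' counting shared reads between copies is not given in the sources used here.

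Msh6, a mismatch repair gene on the chromosome 17 stretch, had 139.9 and 167 RPKM in K754M against 345 and 350.4 RPKM in WT (log2 change -1.18 ± 0.13, SE; adjusted p = 0.000377 in the fit of 14 libraries). Both K754M libraries lay near one another and far below both WT libraries, and the K754R values, 274 and 276 RPKM, lay between them and WT. Other genes of the stretch were also low in both K754M libraries: Epcam, an epithelial adhesion molecule, had 11.8 and 7.30 RPKM in K754M against 47.2 and 31.8 RPKM in WT, and Pigf, an enzyme of GPI-anchor synthesis, had 10.9 and 11.8 RPKM in K754M against 22.7 and 20.6 RPKM in WT.

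Mrps24, a mitochondrial ribosomal protein gene on chromosome 11, had 28.9 and 28.6 RPKM in K754M, 26.6 and 29.9 RPKM in K754R, 81.8 and 80.4 RPKM in Eed null cells and 63.7 and 58.7 RPKM in WT. Ccl25, a chemokine on the chromosome 8 stretch, had 2.51 and 2.50 RPKM in K754M, 2.70 and 2.06 RPKM in K754R, 1.71 and 1.55 RPKM in Eed null cells and 10.9 and 10.3 RPKM in WT. For Ccl25 it was the WT libraries that stood apart from all the others; for Mrps24 both Elongin A edits were low and Eed null was not.

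The other 5 lower genes lay off the stretches. Gpt2, the mitochondrial alanine aminotransferase, had 20.4 and 22.9 RPKM in K754M, 14.1 and 15.99 RPKM in K754R, 13.8 and 14.8 RPKM in Eed null cells and 54.7 and 68.8 RPKM in WT; K754M against WT gave a log2 change of -1.48 ± 0.16 (SE; adjusted p = 0.0753 in the CJ7 fit and 0.000377 in the fit of 14 libraries). Gldc, the glycine decarboxylase of the mitochondrial glycine cleavage system, had 35.3 and 32.1 RPKM in K754M, 39.7 and 36.5 RPKM in K754R, 25.6 and 26.4 RPKM in Eed null cells and 77.4 and 67.4 RPKM in WT (log2 change -1.09 ± 0.12, SE). Inhbe, an activin subunit gene, had 0.186 and 0.122 RPKM in K754M, 0.166 and 0.103 RPKM in K754R, 0.101 and 0.0692 RPKM in Eed null cells and 1.61 and 2.03 RPKM in WT (log2 change -1.82). For all 3 genes the WT libraries lay above the 6 other CJ7 libraries.

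Cbr3, a carbonyl reductase, had 10.5 and 11.1 RPKM in K754M, 18.2 and 15.9 RPKM in K754R, 14.4 and 13.4 RPKM in Eed null cells and 34.0 and 47.0 RPKM in WT (log2 change -1.84 ± 0.18, SE; adjusted p = 0.000463 in the fit of 14 libraries). Chit1, a chitinase, had 0.22 and 0.0725 RPKM in K754M, 1.18 and 0.577 RPKM in K754R, 9.37 and 6.59 RPKM in Eed null cells and 3.20 and 3.18 RPKM in WT. Cbr3 was thus lowest in K754M with WT apart from all others, while Chit1 was low in both edits and highest in Eed null cells.

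**Figure D3:**
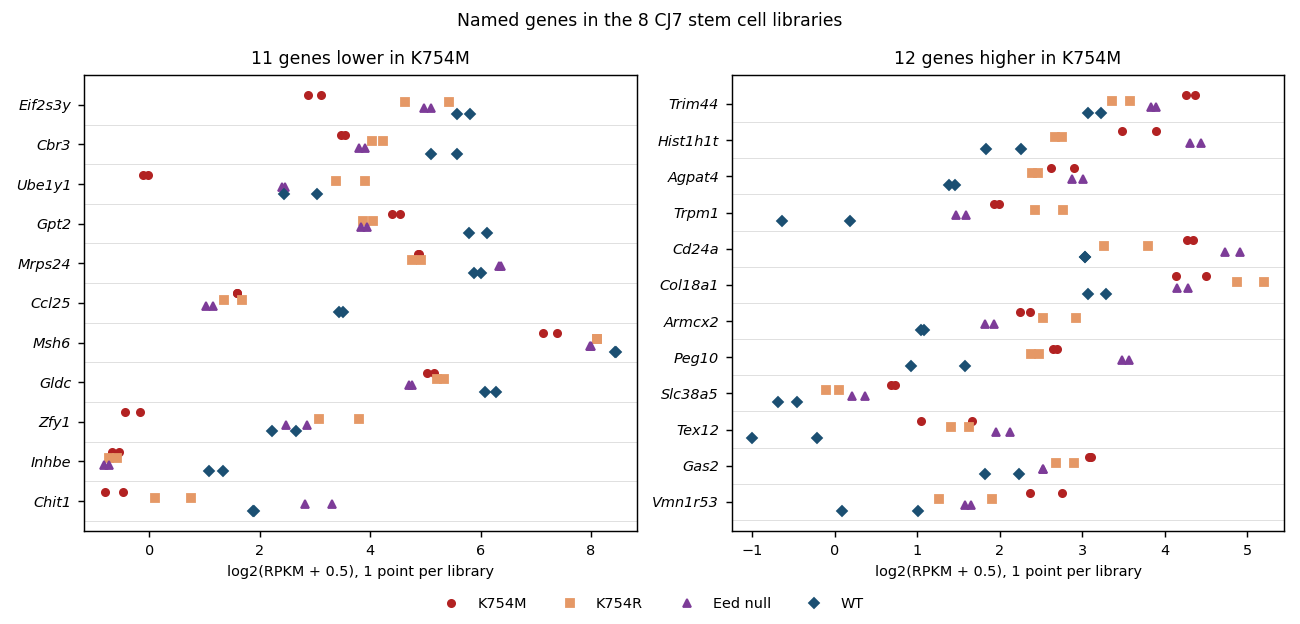
Expression as log2(RPKM + 0.5) (x axis) of 11 of the 12 lower and all 12 higher named genes, 1 point per library, for K754M, K754R, Eed null and WT CJ7 mESCs. The K754M points of the lower genes lie below both WT points, as for Msh6 at 139.9 and 167 RPKM in K754M against 345 and 350.4 RPKM in WT, and those of the higher genes lie above them.

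None of the 12 named genes higher in K754M lay on a stretch, and all 12 rose in the fit of 14 libraries; 9 held, and Peg10, Slc38a5 and Gas2 did not, at adjusted p up to 0.155, 0.111 and 0.0555 with 1 library left out. Trim44, a member of the tripartite motif family, had 18.6 and 20.1 RPKM in K754M, 9.80 and 11.5 RPKM in K754R, 13.8 and 14.4 RPKM in Eed null cells and 7.89 and 8.88 RPKM in WT (log2 change 1.16 ± 0.14, SE; adjusted p = 0.0798 in the CJ7 fit and 0.00386 in the fit of 14 libraries). Slc38a5, a neutral amino-acid transporter, had 1.16 and 1.10 RPKM in K754M, 0.432 and 0.535 RPKM in K754R, 0.794 and 0.655 RPKM in Eed null cells and 0.12 and 0.228 RPKM in WT. Gas2, an actin-associated protein gene, had 8.14 and 7.95 RPKM in K754M, 5.93 and 6.998 RPKM in K754R, 5.23 and 5.25 RPKM in Eed null cells and 3.04 and 4.19 RPKM in WT. Vmn1r53, a vomeronasal receptor from a large family of similar genes, had 4.67 and 6.23 RPKM in K754M, 3.24 and 1.91 RPKM in K754R, 2.49 and 2.63 RPKM in Eed null cells and 0.564 and 1.51 RPKM in WT. In these 4 genes both K754M libraries lay above the 6 other CJ7 libraries. In all 12 higher genes, though, both K754R and both Eed null libraries also lay above both WT libraries.

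Others among the higher genes reached the same or higher levels in Eed null cells. Hist1h1t, the testis linker histone, had 14.3 and 10.6 RPKM in K754M, 6.24 and 5.85 RPKM in K754R, 21.1 and 19.3 RPKM in Eed null cells and 4.28 and 3.07 RPKM in WT (log2 change 1.64 ± 0.21, SE). Peg10, an imprinted gene derived from a retrotransposon, had 5.96 and 5.77 RPKM in K754M, 5.06 and 4.70 RPKM in K754R, 10.7 and 11.3 RPKM in Eed null cells and 1.40 and 2.49 RPKM in WT. Tex12, a component of the synaptonemal complex of meiosis, had 1.56 and 2.67 RPKM in K754M, 2.60 and 2.15 RPKM in K754R, 3.86 and 3.38 RPKM in Eed null cells, and 0.36 RPKM in 1 WT library with the other listed at 0. Cd24a, a cell-surface glycoprotein, had 18.8 and 19.7 RPKM in K754M, 9.09 and 13.4 RPKM in K754R, 26.1 and 29.5 RPKM in Eed null cells and 7.68 and 7.66 RPKM in WT. In each of these genes WT was the lowest group.

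Agpat4, an acyltransferase of phospholipid synthesis, had 6.99 and 5.66 RPKM in K754M against 2.12 and 2.24 RPKM in WT. Col18a1, a basement membrane collagen, had 22.0 and 17.1 RPKM in K754M, 29.0 and 36.3 RPKM in K754R, 17.3 and 18.96 RPKM in Eed null cells and 7.87 and 9.25 RPKM in WT. Fibroblasts make collagens too, and the sums of the 10 fibroblast markers (185 and 531 RPKM in K754M against 191 and 283 RPKM in WT) overlapped between groups; their part in the Col18a1 value was not tested. In bulk RNA, fewer cells of a type and less RNA per cell cannot be told apart. Armcx2, an X-linked armadillo-repeat gene, had 4.25 and 4.65 RPKM in K754M against 1.61 and 1.57 RPKM in WT, and Trpm1, a cation channel of retina and melanocytes, had 3.31 and 3.46 RPKM in K754M against 0.144 and 0.639 RPKM in WT.

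No Elongin subunit gene passed a test. Tceb3, encoding Elongin A itself, had 9.22 and 8.93 RPKM in K754M against 10.7 and 12.2 RPKM in WT (log2 change -0.32 ± 0.18, SE; adjusted p = 0.652, limma in the CJ7 fit). Tceb1, encoding Elongin C, had 84.4 and 113 RPKM in K754M against 84.0 and 111 RPKM in WT, and Tceb2, encoding Elongin B, had 88.9 and 101 RPKM in K754M against 81.5 and 85.7 RPKM in WT. None of the 5 genes of the Elongin complex and its ubiquitin ligase was under p of 0.05 (median log2 change 0.02). All genes had 4.25% higher and 5.76% lower at that p. Of 34 elongation factor genes 2 were lower and none was higher, Supt6h and Hexim1, both on chromosome 11; the 30 off the stretches held none.

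Beside 4.25% of all genes higher and 5.76% lower, Suz12 alone of 12 PRC2 subunit genes was under p of 0.05. It lies on chromosome 11 and had 50.03 and 42.8 RPKM in K754M, 57.7 and 39.1 RPKM in K754R, 63.6 and 61.0 RPKM in Eed null cells and 79.9 and 78.0 RPKM in WT (log2 change -0.76 ± 0.19, SE; adjusted p = 0.233 in the CJ7 fit and 0.0155 in the fit of 14 libraries, and up to 0.0899 with 1 library left out). Eed had 88.6 and 155 RPKM in K754M against 105 and 119 RPKM in WT, and Ezh2, the catalytic subunit, had 22.3 and 19.2 RPKM in K754M against 19.11 and 18.8 RPKM in WT. The groups overlapped for Eed and nearly met for Ezh2. Among 19 PRC1 genes 2 were lower, Cbx2 on chromosome 11 and Pcgf6, with 17.3 and 23.3 RPKM in K754M against 26.0 and 31.9 RPKM in WT.

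Genes that PRC2 is known to hold silent were set beside all genes, of which 4.25% were higher and 5.76% lower at p below 0.05. Of 41 tested developmental transcription factors 1 was higher and 1 lower at p below 0.05, with a median log2 change of 0.05. Among 30 tested Hox genes 3 were higher, none was lower and the median was 0.23, and none was called in the fit of 14 libraries. In all, 24 of the 30 lay above 0, and the 4 pairings of libraries gave Hox medians between 0.13 and 0.26. The groups did not overlap for 13 that were higher and 1 lower, against 18.7% and 16% of all genes. Against the same WT libraries, the Hox genes had medians of 0.31 in K754R and 0.48 in Eed null cells. Their levels were low: Hoxc10 had 0.707 and 0.445 RPKM in K754M, with 0.077 RPKM in 1 WT library and the other listed at 0, and Hoxd13 had 1.44 and 1.87 RPKM in K754M against 0.582 and 0.858 RPKM in WT. Fibroblasts also express Hox genes, and the 37 feeder markers had a median log2 change of 0.35, with 33 of 37 above 0 and none under p of 0.05; the pairings of a K754M with a WT library gave medians between -0.25 and 0.93. Whether feeder RNA enters the Hox values was not tested.

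The Eed null EBs gave a wider list of genes that differ without PRC2, 5867 in all (30.4%), with 3703 higher (19.2%) and 2164 lower (11.2%) than WT EBs at an adjusted p below 0.05. Of those higher there, 3501 were tested in K754M mESCs, with 164 higher, 267 lower and a median log2 change of 0.00. Of those lower there, 1980 were tested, with 98 higher, 156 lower and a median of 0.04. All genes had 4.25% higher and 5.76% lower at p below 0.05, with a median of 0.03.

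Members of a list of genes driven by the transcription factor Atf4 were lower in K754M. Like the other lists, it was chosen with earlier results of these data known. Atf4 is translated when amino acids are short or proteins misfold, and it turns on amino-acid synthesis, transport and tRNA charging. Of 41 members, 22 were lower and none was higher at p below 0.05, against 5.76% and 4.25% of all genes. The median log2 change was -0.53, and the 4 pairings of a K754M with a WT library gave medians between -0.66 and -0.50. In the fit of 14 libraries 17 members fell and none rose (background 2.91% and 1.48%), and the number that fell was 9 without WT replicate 1, 9 without WT replicate 2, 12 without K754M replicate 1 and 12 without K754M replicate 2. The calls of Gpt2, Inhbe, Nars, Phgdh, Shmt2, Slc7a5 and Stc2 held. In all, 40 of the 41 lie off the stretches, with 21 of the 40 lower at p below 0.05. Among all genes of at least 2 RPKM off the stretches that share was 4.21%.

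Serine synthesis had 3 members lower. Phgdh, its first enzyme, had 11.6 and 11.4 RPKM in K754M, 10.7 and 14.3 RPKM in K754R, 29.6 and 26.6 RPKM in Eed null cells and 26.6 and 24.7 RPKM in WT (log2 change -1.12 ± 0.16, SE). Psat1, the next enzyme, had 88.3 and 104 RPKM in K754M against 145 and 154 RPKM in WT, and Psph, the last, had 23.04 and 31.7 RPKM in K754M against 47.4 and 61.5 RPKM in WT. The mitochondrial folate enzymes followed: Shmt2 had 54.2 and 52.3 RPKM in K754M against 89.96 and 94.1 RPKM in WT, and Mthfd2 had 48.3 and 50.6 RPKM in K754M against 75.2 and 81.5 RPKM in WT. All 5 fell in the fit of 14 libraries, Shmt2 at an adjusted p of 0.00396, and the calls of Phgdh and Shmt2 held, while those of Psat1, Psph and Mthfd2 reached adjusted p of 0.0537, 0.116 and 0.0712 with 1 library left out.

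Among tRNA synthetases, Gars, which charges glycine, had 236 and 245 RPKM in K754M against 338 and 332 RPKM in WT, and Nars, which charges asparagine, had 195 and 216 RPKM in K754M against 285 and 309 RPKM in WT. The amino-acid transporter Slc7a5 had 32.1 and 24.8 RPKM in K754M against 47.3 and 51.1 RPKM in WT. Chac1 and Trib3, both known as stress-induced genes, were lower in both K754M libraries than in both WT libraries. Chac1, which degrades glutathione, had 7.77 and 5.72 RPKM in K754M, 2.60 and 8.88 RPKM in K754R, 5.91 and 8.45 RPKM in Eed null cells and 22.7 and 36.6 RPKM in WT (log2 change -2.03 ± 0.52, SE). Trib3, a pseudokinase induced by Atf4, had 8.96 and 8.57 RPKM in K754M against 17.8 and 21.6 RPKM in WT; with 1 library left out the adjusted p reached 0.0971 for Chac1 and 0.125 for Trib3. Stc2, a secreted glycoprotein, had 3.58 and 2.04 RPKM in K754M against 12.3 and 12.5 RPKM in WT, and it is the one member on chromosome 11. Gpt2 and Inhbe, described above, are members as well.

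Other members had smaller differences. Atf4 itself had 115 and 115 RPKM in K754M against 128 and 142 RPKM in WT, and Asns, the asparagine synthetase, had 285 and 351 RPKM in K754M against 395 and 404 RPKM in WT. Ddit3, a stress transcription factor, had 30.5 and 13.2 RPKM in K754M against 28.03 and 12.1 RPKM in WT. The groups overlapped for Ddit3 and not for Atf4 or Asns. K754R and Eed null cells share the WT libraries with K754M, and against them the median of the 41 members was -0.76 in K754R and -0.61 in Eed null cells. Between K754M and K754R the median was 0.13, with 8 members higher and 1 lower at p below 0.05 (background 5.03% and 5.04%). In EBs the median of 39 tested members was 0.07 with none called, and in EloA null CCE cells the median was 0.03 with none called.

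The Atf4 list was assembled from known targets of that factor, and its promoters were searched for the core of the element it binds, TGATGNAA, on either strand (the reverse strand reads TTNCATCA), in RefSeq windows of 250 bases before to 50 after a start site. The motif was present for 12 of the 33 members with a window (36.4%), against 1219 of 27025 genes of the table (4.51%). Members were chosen as targets of the factor that binds this motif, so that share describes the list and not K754M. Of the 22 members lower at p below 0.05, 17 had a window and 8 held the motif (47.1%). Of the other 19 members, 16 had a window and 4 held it (25%). This split was made by p-values of these same data, the counts are small, and the difference between the shares was not tested. The windows printed are those of the 4 members with the smallest p in K754M against WT whose window holds the motif. They were thus chosen by these same data, and all 4 were lower. Vldlr, a lipoprotein receptor gene, had 3.05 and 2.32 RPKM in K754M against 5.60 and 4.51 RPKM in WT. Sequences are those of RefSeq, GRCm38.p6, 5′ to 3′ on the strand of the gene, with the match in capitals. The window of Inhbe is chr10:127351799-127352098 on the minus strand, with the match beginning 181 bases before the start site. That of Gars is chr6:55037751-55038050 on the plus strand, with the match at 30 bases before it. Chac1 is at chr2:119350992-119351291 on the plus strand, with the match 193 bases before the start site, and 1 of the 2 windows of Vldlr is at chr19:27216770-27217069 on the plus strand, with the match 200 bases before it. A match is a string of letters and not a measured binding site.
Inhbe: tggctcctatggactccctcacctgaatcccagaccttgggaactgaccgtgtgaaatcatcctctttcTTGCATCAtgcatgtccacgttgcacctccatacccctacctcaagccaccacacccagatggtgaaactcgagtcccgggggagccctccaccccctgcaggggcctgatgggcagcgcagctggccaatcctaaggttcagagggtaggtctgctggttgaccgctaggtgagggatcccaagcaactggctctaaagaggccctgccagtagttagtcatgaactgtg
Gars: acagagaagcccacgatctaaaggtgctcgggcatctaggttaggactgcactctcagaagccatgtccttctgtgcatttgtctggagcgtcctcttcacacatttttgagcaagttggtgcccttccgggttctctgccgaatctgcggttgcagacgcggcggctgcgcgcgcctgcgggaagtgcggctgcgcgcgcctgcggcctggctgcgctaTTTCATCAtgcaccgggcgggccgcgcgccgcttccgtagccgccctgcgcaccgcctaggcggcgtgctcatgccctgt
Chac1: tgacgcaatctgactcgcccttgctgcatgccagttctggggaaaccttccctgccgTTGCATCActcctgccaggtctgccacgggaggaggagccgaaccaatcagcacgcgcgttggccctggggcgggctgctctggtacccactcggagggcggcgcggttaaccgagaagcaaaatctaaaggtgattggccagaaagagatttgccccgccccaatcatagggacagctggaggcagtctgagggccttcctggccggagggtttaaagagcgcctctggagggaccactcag
Vldlr: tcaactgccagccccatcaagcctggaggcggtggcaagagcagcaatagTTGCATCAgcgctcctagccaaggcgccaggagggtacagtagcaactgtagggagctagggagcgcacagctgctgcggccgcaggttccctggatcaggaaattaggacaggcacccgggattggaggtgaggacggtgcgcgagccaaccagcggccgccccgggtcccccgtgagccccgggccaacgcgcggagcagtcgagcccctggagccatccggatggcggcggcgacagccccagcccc

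Genes of glycine, betaine and one-carbon metabolism, the pathway that moves single carbons from serine, glycine and choline onto folate, had members lower in K754M. Of 30 tested members 12 were lower and none was higher at p below 0.05, against 5.76% and 4.25% of all genes, with a median log2 change of -0.15. The pairings of a K754M with a WT library gave medians between -0.34 and -0.22, a range that need not hold the median of the averaged changes. K754R, set against the same WT libraries, had a median of -0.19 with 12 members lower and 2 higher at p below 0.05. Eed null cells had a median of 0.00 with 10 lower and 3 higher. At that p, 1590 of all 21012 genes were lower in K754R and 2256 in Eed null cells. Mthfd2, Shmt2 and Slc6a9 are members of the Atf4 list as well. In the fit of 14 libraries, where 2.91% of all genes fell, 8 members fell: Bhmt2, Dmgdh, Gldc, Mthfd1l, Mthfd2, Pipox, Shmt1 and Shmt2. With 1 library left out 3 to 9 members fell, the fewest without WT replicate 1, and the calls of Gldc, Pipox and Shmt2 held. Dmgdh, the dimethylglycine dehydrogenase, had 2.41 and 2.65 RPKM in K754M, 4.56 and 3.68 RPKM in K754R, 3.10 and 3.65 RPKM in Eed null cells and 7.92 and 6.18 RPKM in WT. Bhmt2, a homocysteine methyltransferase, had 2.84 and 1.51 RPKM in K754M against 8.81 and 7.32 RPKM in WT. Shmt1, the cytosolic serine hydroxymethyltransferase, had 40.1 and 48.8 RPKM in K754M against 67.3 and 72.6 RPKM in WT, and Pipox, a peroxisomal oxidase, had 10.5 and 10.7 RPKM in K754M against 26.2 and 24.8 RPKM in WT; both lie on chromosome 11. Off the stretches 9 of 27 members were lower, against 4.21% of all genes of at least 2 RPKM there. In EBs the median was 0.12 with none called, and in EloA null cells it was -0.06 with 4 members called lower (1.23% of all genes).

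Pluripotency genes kept high levels in both groups. Of 26 such genes 2 were higher and 1 lower at p below 0.05, against 4.25% and 5.76% of all genes. Pou5f1, encoding Oct4, had 358 and 370.05 RPKM in K754M, 286 and 299.8 RPKM in K754R, 288 and 285 RPKM in Eed null cells and 280.3 and 299.6 RPKM in WT (log2 change 0.33 ± 0.12, SE; adjusted p = 0.047 in the fit of 14 libraries and 0.233 at most with 1 library left out). Sox2 had 81.0 and 88.4 RPKM in K754M against 84.9 and 88.8 RPKM in WT, and Nanog had 465 and 656 RPKM in K754M against 486 and 683 RPKM in WT. The groups overlapped for Sox2 and Nanog, with replicate 2 above replicate 1 in both groups. Dppa3, a germ-cell and naive-state marker, had 4.65 and 3.83 RPKM in K754M, 30.0 and 27.3 RPKM in K754R, 80.0 and 77.3 RPKM in Eed null cells and 24.6 and 10.4 RPKM in WT (log2 change -1.81 ± 0.35, SE; adjusted p = 0.0238 in the fit of 14 libraries and 0.14 at most with 1 library left out). Here K754M was the lowest of the 4 CJ7 groups. No member of the primed epiblast list (11 tested) or the list of 2-cell-stage genes (16 tested) was under p of 0.05 in either direction.

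Of 34 germline genes 6 were higher and 2 lower at p below 0.05, against 4.25% and 5.76% of all genes. Taf7l, a testis form of a general transcription factor subunit, had 3.60 and 2.82 RPKM in K754M against 0.888 and 1.16 RPKM in WT (log2 change 1.28 ± 0.36, SE; adjusted p = 0.0328 in the fit of 14 libraries), and Syce1, a synaptonemal complex gene, had 22.8 and 30.0 RPKM in K754M against 9.72 and 16.3 RPKM in WT. Tex19.1, a germ-cell gene on chromosome 11, had 48.5 and 65.2 RPKM in K754M against 105 and 155 RPKM in WT. In the fit of 14 libraries Taf7l and Magea10 rose and Tex19.1 fell, and none of these calls held (adjusted p up to 0.169, 0.237 and 0.0636). Among 46 imprinted genes 4 were higher and 1 lower; Rian, a noncoding RNA of the Dlk1 cluster, had 93.5 and 96.2 RPKM in K754M, 52.0 and 40.4 RPKM in K754R, 13.004 and 14.5 RPKM in Eed null cells and 60.9 and 56.7 RPKM in WT (log2 change 0.69 ± 0.15, SE). Usp29, a deubiquitinase gene next to Peg3, had 2.07 and 1.90 RPKM in K754M against 3.53 and 4.36 RPKM in WT. In the fit of 14 libraries Peg10 and Rian rose and Usp29 fell, and none of these calls held (adjusted p up to 0.155, 0.0591 and 0.114).

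Of the 30 genes of heat shock and the unfolded protein response 5 were higher and 3 lower at p below 0.05. All genes had 4.25% higher and 5.76% lower, and this list had a median log2 change of 0.07. Hspa5, the main chaperone of the endoplasmic reticulum, had 429 and 437 RPKM in K754M, 341 and 358 RPKM in K754R, 413 and 402 RPKM in Eed null cells and 234 and 283 RPKM in WT (log2 change 0.75 ± 0.14, SE; adjusted p = 0.00672 in the fit of 14 libraries). Calr, calreticulin, had 488 and 424 RPKM in K754M against 309.97 and 314 RPKM in WT, and Hsp90b1 had 269 and 227 RPKM in K754M against 174 and 176 RPKM in WT. Canx, calnexin on chromosome 11, had 345 and 287 RPKM in K754M against 474 and 431 RPKM in WT. In the fit of 14 libraries Calr, Hsp90b1, Hspa5 and Pdia6 rose and Canx and Hspb8 fell, and none of these calls held; with 1 library left out the adjusted p reached 0.051 for Hspa5, 0.0824 for Calr and 0.161 for Hsp90b1.

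Of 76 cytoplasmic ribosomal protein genes 7 were higher and 2 lower, against 4.25% and 5.76% of all genes, with a median log2 change of 0.15. Rpl10 had 46.7 and 44.0 RPKM in K754M against 30.1 and 33.0 RPKM in WT. Ribosomal protein genes have many processed pseudogenes, which makes their counts uncertain. Of 32 proliferation genes 6 were lower and none higher, and the 3 that fell in the fit of 14 libraries, the replication licensing factor Cdc6, Birc5 and the mitotic kinase Aurkb, all lie on chromosome 11, and the call of Cdc6 alone held; Cdc6 had 13.6 and 16.5 RPKM in K754M against 24.1 and 25.03 RPKM in WT. Off the stretches 2 of 28 were lower, against 4.21% of all genes of at least 2 RPKM there.

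Beside 4.25% of all genes higher and 5.76% lower, lists of early lineages gave few members under p of 0.05. None of 15 trophoblast or 23 mesoderm genes was, 1 of 23 extraembryonic endoderm genes was higher, and 2 of 14 neuroectoderm genes were higher and 1 lower. Ncam1, a neural adhesion molecule, had 5.25 and 7.24 RPKM in K754M against 3.00 and 3.81 RPKM in WT, while Nes, encoding nestin, had 12.9 and 9.14 RPKM in K754M against 21.4 and 16.6 RPKM in WT. In the retinoic acid list 2 of 21 were higher, among them Crabp2, which binds retinoic acid and had 6.62 and 6.34 RPKM in K754M against 1.99 and 2.56 RPKM in WT. Among 13 blood and endothelium genes the 1 lower gene was Pecam1 on chromosome 11, with 52.8 and 40.1 RPKM in K754M against 70.5 and 74.0 RPKM in WT. Fabp7 and Ncam1 were among the genes that rose in the fit of 14 libraries, and no mesoderm, trophoblast or extraembryonic endoderm gene did; with 1 library left out the adjusted p reached 0.188 for Ncam1.

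Of 26 p53 targets 1 was higher and 1 lower, against 4.25% and 5.76% of all genes. Perp, a desmosomal p53 target, had 25.6 and 32.8 RPKM in K754M against 16.1 and 19.96 RPKM in WT. Of 34 interferon and antigen presentation genes 1 was higher and 5 lower, and H2-K1, a class I antigen-presenting gene, had 13.1 and 7.34 RPKM in K754M against 27.9 and 17.9 RPKM in WT. Of 29 glycolysis genes 1 was higher and 1 lower, Pdk1, a kinase that holds back pyruvate oxidation, with 20.7 and 17.5 RPKM in K754M against 30.0 and 30.2 RPKM in WT. Of 73 nuclear respiratory chain genes 1 was higher and 4 lower, of 27 immediate early genes 1 was lower and of 20 Wnt targets 1 was higher. None of 23 cholesterol synthesis genes, 16 DNA methylation genes or 7 cell cycle inhibitors was under p of 0.05.

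**Figure D4:**
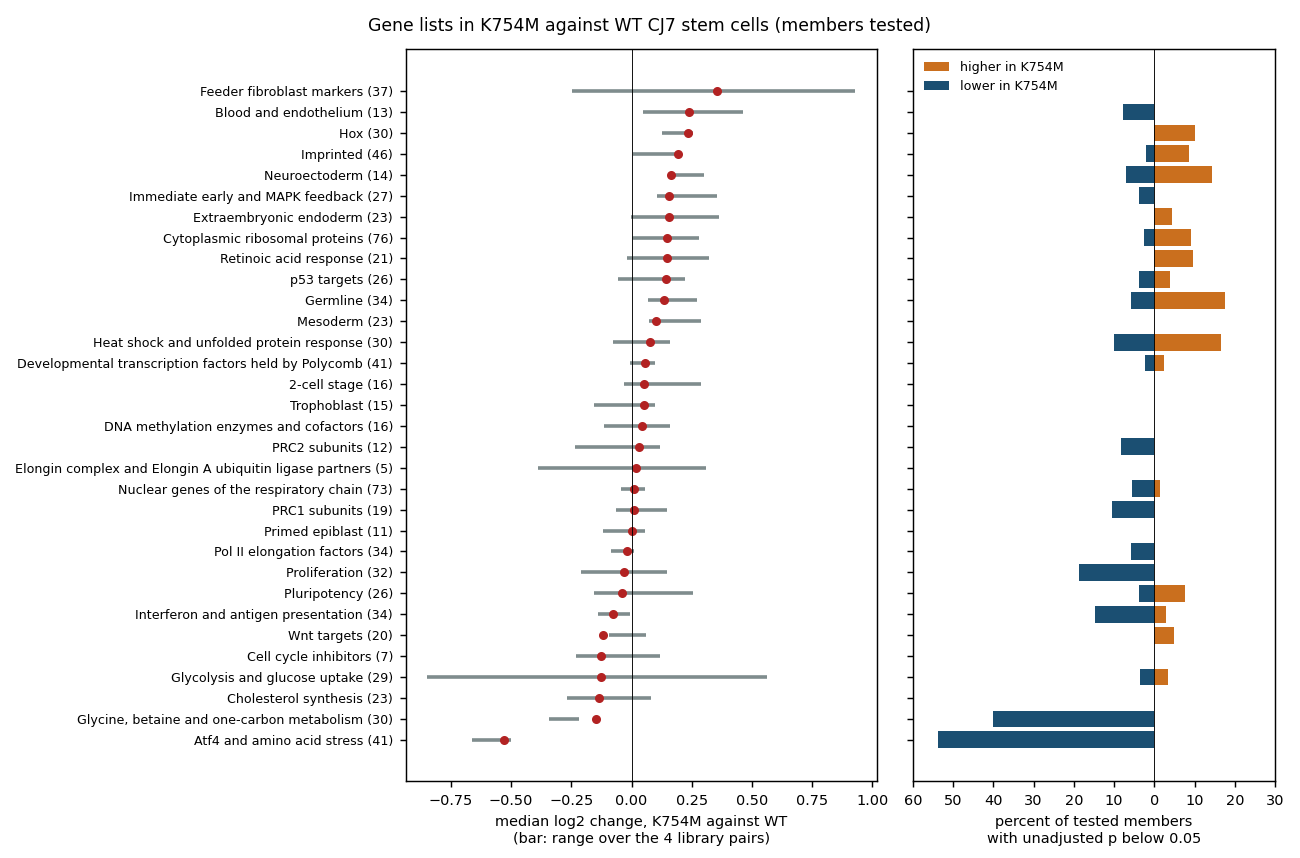
Median log2 change of K754M against WT in mESCs for 32 gene lists (left, points, with bars for the lowest and highest median over the 4 pairings of a K754M with a WT library) and the percent of tested members lower or higher at an unadjusted p below 0.05 (right). The Atf4 list lies lowest, at -0.53 with bars between -0.66 and -0.50, and the feeder list has the highest median, 0.35, with bars between -0.25 and 0.93.

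K754M and K754R mESCs were compared directly, which shares the K754M libraries with the comparison above. In this comparison 2 of 21012 genes passed an adjusted p of 0.05 (0.00952%), both lower in K754M, and 1056 genes were higher (5.03%) and 1058 lower (5.04%) at p below 0.05. Ube1y1, on the Y chromosome, had 0.421 and 0.479 RPKM in K754M against 14.5 and 9.94 RPKM in K754R (log2 change -3.72 ± 0.27, SE; limma adjusted p = 0.0438). Gm364 had 6.53 and 9.16 RPKM in K754M against 72.4 and 55.0 RPKM in K754R (log2 change -2.95 ± 0.20, SE; adjusted p = 0.0438). Both calls were lost with a pseudocount of 1, with no filter on low values and when any 1 library of the comparison was left out. Whole chromosomes stood apart here as well: the median log2 change was -0.31 on chromosome 14 and -0.26 on the X chromosome, against 0.26 on chromosome 12 and 0.23 on chromosome 4.

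The other named genes of this comparison did not pass. Among the higher ones Prph, encoding the neuronal filament peripherin, had 9.32 and 5.63 RPKM in K754M against 0.524 and 0.708 RPKM in K754R, and Fbxo2, an F-box gene, had 16.5 and 13.4 RPKM in K754M against 4.83 and 4.27 RPKM in K754R. Ppie, a spliceosomal prolyl isomerase, had 54.4 and 55.8 RPKM in K754M against 27.4 and 23.6 RPKM in K754R. Cdrt4 had 1.43 and 0.996 RPKM in K754M, with 0.076 RPKM in 1 K754R library and the other listed at 0. Among the lower ones Kdm5d, the Y-linked histone demethylase, had 0.276 and 0.335 RPKM in K754M against 4.50 and 3.62 RPKM in K754R, and Zfy1 had 0.238 and 0.392 RPKM in K754M against 13.4 and 7.89 RPKM in K754R. Ube2l6, the conjugating enzyme for the interferon-induced modifier Isg15, had 0.836 and 0.594 RPKM in K754M against 4.74 and 4.798 RPKM in K754R, and H2-Eb1, a class II antigen-presenting gene, had 3.88 and 4.87 RPKM in K754M against 13.7 and 15.8 RPKM in K754R.

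In EBs, where these 4 libraries held 31438000 to 32554000 reads, 109 of 19300 genes passed an adjusted p of 0.05 between K754M and WT (0.565%), 35 higher (0.181%) and 74 lower (0.383%), and 1395 genes were higher (7.23%) and 1539 lower (7.97%) at p below 0.05. Of the 74 lower genes 37 lay on the stretches defined in mESCs, against 1 of the 35 higher ones. The number called was 0 without K754M replicate 1, K754M replicate 2 or WT replicate 2, 17 without WT replicate 1 and 18 when the genes of the stretches were left out of the test. On chromosome 17, Msh6 fell to 28.7 and 31.3 RPKM in K754M EBs, against 54.2 and 60.7 RPKM in WT EBs (log2 change -0.93; adjusted p = 0.0428, limma). Pigf fell to 10.3 and 10.9 RPKM in K754M EBs, against 33.4 and 32.5 RPKM in WT EBs. Epcam fell to 47.0 and 46.4 RPKM in K754M EBs, against 115 and 94.8 RPKM in WT EBs (adjusted p = 0.0219). The direction in these 3 genes was the one seen in mESCs.

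The Y-linked Eif2s3y had 5.65 and 5.72 RPKM in K754M EBs against 24.7 and 25.1 RPKM in WT EBs (log2 change -2.04; adjusted p = 0.00236, limma), and Ddx3y, an RNA helicase gene, had 7.01 and 5.54 RPKM in K754M EBs against 16.7 and 16.7 RPKM in WT EBs (adjusted p = 0.0219). In mESCs Ddx3y had 8.02 and 13.2 RPKM in K754M against 33.5 and 33.0 RPKM in WT. Of 11 of the lower named genes that could be tested in EBs 3 passed, Eif2s3y and Msh6 among them, and of 10 of the higher named genes none did. Gpt2 had 10.5 and 6.32 RPKM in K754M EBs against 9.61 and 6.53 RPKM in WT EBs, Trim44 had 22.1 and 24.1 RPKM in K754M EBs against 19.6 and 19.106 RPKM in WT EBs, and Cd24a had 273 and 261 RPKM in K754M EBs against 251 and 205 RPKM in WT EBs. The Gpt2 groups overlapped in EBs.

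Across all genes under p of 0.05 in mESCs, the EB log2 change had the same sign for 459 of 755 higher genes (60.8%) and 750 of 1062 lower genes (70.6%), against 55.7% of all genes. On the stretches the lower genes had the same sign in 446 of 472 cases (94.5%), and off them in 304 of 590 (51.5%). The shares over all tested genes were 76.8% on the stretches and 53.6% off them. Higher genes off the stretches had the same sign in 452 of 741 cases (61.0%).

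Interferon and antigen presentation genes had members lower in K754M EBs. Of 33 tested members 12 fell and none rose at an adjusted p below 0.05, against 0.383% and 0.181% of all genes. The median log2 change was -0.77. Psmb8, a subunit of the immunoproteasome, had 0.125 and 0.0449 RPKM in K754M EBs against 4.74 and 5.94 RPKM in WT EBs. H2-K1 had 17.6 and 18.1 RPKM in K754M EBs against 37.9 and 49.6 RPKM in WT EBs (log2 change -1.26; adjusted p = 0.039). Igtp, an interferon-induced GTPase gene on chromosome 11, also fell (log2 change -2.20; adjusted p = 0.0154). In mESCs the same list had a median of -0.08. The EB lists of pluripotency (26 tested, median 0.40), cholesterol synthesis (23 tested, median 0.53, 13 higher at p below 0.05), feeder markers (35 tested, median 0.47) and glycolysis (29 tested, median -0.58) stood further from 0 than in mESCs, with 1, 0, 2 and 0 members called. EBs hold many cell types, and their proportions were not measured.

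EloA null and WT CCE mESCs gave the other Elongin A comparison at the stem-cell stage, from libraries not shared with CJ7. Of 18460 genes 619 passed an adjusted p of 0.05 (3.35%), 392 higher (2.12%) and 227 lower (1.23%) in EloA null cells. Of the 392 higher genes 204 lay on chromosome 14, whose genes of 2 RPKM or more had a median log2 change of 0.46 in EloA null cells, and 153 calls were left when chromosomes 8, 11, 14, X and Y were not tested. Leaving out 1 of its 6 libraries gave 158 to 640 calls. Of the higher ones 386 were tested in K754M, where 39 were higher and 20 lower at p below 0.05 with a median log2 change of 0.08; off chromosome 14 these counts were 25 and 7 of 184, with a median of 0.12. Of the lower ones 221 were tested, where 9 were higher and 61 lower with a median of -0.23; off the stretches these counts were 9 and 29 of 176, with a median of -0.12. All genes tested in K754M, those of the stretches included, had 4.25% higher and 5.76% lower at p below 0.05. Off the stretches, 388 of 9216 genes of at least 2 RPKM were lower at that p (4.21%) and 397 were higher. Tceb3 itself fell in EloA null cells by 0.68 on the log2 scale (limma adjusted p = 0.0228). Gldc was lower in both: it had 11.1, 11.6 and 11.6 RPKM in EloA null cells against 22.5, 26.0 and 26.2 RPKM in CCE WT cells (log2 change -1.09; adjusted p = 0.00274, limma), the size it had in K754M. The Y-linked Eif2s3y, Ube1y1 and Zfy1 also fell in EloA null cells, by 1.44, 1.17 and 1.11 on the log2 scale, and Ccl25 by 1.05.

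The difference between the effects, K754M against WT minus EloA null against WT, passed an adjusted p of 0.05 for 224 of 21780 genes (1.03%), of which 77 were positive (0.354%) and 147 negative (0.675%) in the fit of 14 libraries. With 1 library left out the number was 76 to 516, lowest without CCE WT replicate 2 and highest without K754M replicate 2. On the stretches lay 47 of the 147 and 3 of the 77, and on chromosome 14 lay 34 of the 147 and 1 of the 77. The named genes were chosen for their K754M effect, which is part of the difference, so that 9 of the 12 lower ones (Cbr3, Gpt2, Inhbe, Msh6, Mrps24 and Chit1 among them) and 7 of the 12 higher ones passed is a description. For Gpt2 the difference was -1.45, since EloA null cells had a log2 change of -0.04. For Gldc, Eif2s3y and Ccl25 the difference did not pass. The X-linked 1700013H16Rik had opposite signs, with a log2 change of 1.41 in K754M and -2.38 in EloA null cells.

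Because Elongin acts on elongating polymerase, changes were also set against gene length. Across 10154 expressed genes with a known span, the rank correlation of the K754M log2 change with span was 0.05 and with exon length 0.11, given as descriptions since genes share libraries. Off the stretches the share of genes lower at p below 0.05 was 5.44% in the shortest sixth by span and 2.86% in the longest. The share higher was 5.11% in the shortest and 4.01% in the longest. By exon length the share lower was 6.22% in the shortest sixth and 1.86% in the longest, and the share higher was 4.55% and 4.10%.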

How the data were processed

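RNA was sequenced from CJ7 and CCE mESCs and CJ7 EBs. The authors deposited RPKM values per gene, 1 table per stage, and each table was analysed on its own. Per the submitters' processing notes the tools and build included CASAVA 1.7, STAR and mm9; how reads were counted, and whether by strand, is not stated there. RPKM steps gave whole reads for 45.03% to 50.4% of the low values, so no count test was run; the step of 1 read gave the depths. A further 4 columns, of CCE EBs whose labels contradict each other, were not used.

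Values were tested as log2(RPKM + 0.5) with limma 3.58.1 in R 4.3.3 (trended variance), over the 8 CJ7 mESC, 8 CJ7 EB or 6 CCE mESC libraries, for genes with at least 0.25 RPKM in 2 libraries, with Benjamini-Hochberg adjustment at 0.05. Tables were made with Python 3.11.15 and pandas 2.3.3, figures with matplotlib 3.10.9, and the fit was tested on simulated data. Chromosome, order and length came from GENCODE M21 (GRCm38) by gene ID (32860 IDs found), with no coordinates taken over.

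Named genes were Tceb1, Tceb2, Tceb3, Eed, Ezh2, Suz12, Pou5f1, Sox2 and Nanog; the 12 higher and 12 lower with the smallest p among genes with a symbol, a mean of 1 RPKM, groups that do not overlap and a log2 change of 1; the 5 smallest p-values; up to 3 members a list; and 5 each way against K754R. Others were named after their values were seen, among them Epcam, Pigf, Ddx3y, Psmb8, Igtp and further members of the Atf4, one-carbon, chaperone and pluripotency lists. A few genes that the rule names are not reported here. The members and lists were chosen with earlier results of these data known. Alternatives were other pseudocounts, filters, normalizations, gene sets, fits and left-out libraries.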

Additional observations from a re-analysis of the deposited data

Results flagged for a closer look

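In 17 named genes both K754M libraries lay on one side of both WT libraries in mESCs and on the other side in EBs. They are 17 of the 123 named genes tested at both stages (13.8%), many of which were named for their mESC values, against 1163 of all 17757 genes tested at both stages (6.55%). The difference between the stages was not tested, since each stage was deposited as a table of its own. Pecam1, an endothelial adhesion molecule, had a log2 change of -0.64 in mESCs and 1.15 in EBs, and the mesoderm genes Mixl1 and T had -0.44 in mESCs and 0.98 in EBs (Mixl1) and 0.74 in mESCs and -0.37 in EBs (T). Irx1 had 0.62 in mESCs and -1.28 in EBs, and Hoxd13 had 0.82 in mESCs and -0.13 in EBs. Gldc had -1.09 in mESCs and 0.36 in EBs, and Chit1 had -2.52 in mESCs and 0.57 in EBs. Hist1h1t had 1.64 in mESCs and -0.87 in EBs, and Slc38a5 had 1.28 in mESCs and -0.68 in EBs. Tex19.1 had -1.18 in mESCs and 0.5 in EBs, and Usp29 had -0.83 in mESCs and 0.57 in EBs. The cholesterol synthesis genes Sqle and Fdps had -0.31 in mESCs and 0.61 in EBs (Sqle) and -0.34 in mESCs and 0.53 in EBs (Fdps). Dnmt1, the maintenance DNA methyltransferase, had -0.25 in mESCs and 0.2 in EBs, and Apcdd1, a Wnt target, had -0.29 in mESCs and 0.85 in EBs. Hspb8 had -0.45 in mESCs and 0.18 in EBs, and Ei24 had -0.31 in mESCs and 0.31 in EBs.

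In 23 named genes the effect of K754M in CJ7 and the effect of EloA null in CCE differed in the fit of 14 libraries (limma, Benjamini-Hochberg adjusted p). Many of them were named for their K754M effect, which is part of this difference. The difference, K754M effect minus EloA null effect on the log2 scale, was 3.79 for 1700013H16Rik (adjusted p = 0.000496) and 3.29 for AL772216.14 (adjusted p = 0.00954), against -2.7 for AL731857.1 (adjusted p = 0.0306). Among genes of the stretches it was -1.65 for Ube1y1, -1.63 for Zfy1, -1.15 for Msh6, -0.99 for Mrps24 and -1.99 for Stc2, at adjusted p between 0.00316 (Msh6) and 0.0434 (Zfy1). Among the other lower genes it was -2.3 for Inhbe (adjusted p = 0.00316), -1.45 for Gpt2, -0.86 for Shmt2, -1.78 for Cbr3, -2.42 for Chit1 and -1.94 for Ube2l6. Among the higher genes it was 2.46 for Tex12, 2.26 for Peg10, 1.93 for Trpm1, 1.66 for Hist1h1t, 1.32 for Agpat4, 1.07 for Col18a1, 1.02 for Cd24a, 0.9 for Rian and 0.7 for Rpl10, at adjusted p between 0.0138 (Agpat4) and 0.0466 (Cd24a).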

How the results depend on the processing

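For K754M against WT in mESCs, 0 genes were called under 10 of the settings tried, 1 with a pseudocount of 0.1 (AL772216.14, adjusted p = 0.0246), 13 without small RNA genes, pseudogenes and clones, 955 in the fit of 14 libraries and 0 with 1 library left out. K754M against K754R gave 2 calls, 0 with a pseudocount of 1, no filter, quantile normalization, only the 2 groups in the fit or chromosomes 8, 11, 14, X and Y left out, 13 without small RNA genes, 841 in the fit of 14 libraries, 1 without the stretches (added after seeing the data) and 0 with 1 library left out. The EB count of 109 was 58 with no filter, 185 with a filter at 1 RPKM, 58 with a median shift, 0 with only the 2 groups in the fit, 66 without those chromosomes, 262 without small RNA genes, 18 without the stretches (added after seeing the data) and 0 to 17 with 1 library left out. The EloA null count of 619 was 153 without those chromosomes, 296 in the fit of 14 libraries and 158 to 640 with 1 library left out, and the count of 224 differences was 76 to 516. The replicate numbers are shared by the groups but the labels do not say that they pair samples (correlation of replicate deviations between K754M and WT 0.277); with replicate as a block the counts were 0 for K754M against WT, 0 against K754R, 230 in EBs and 2288 for EloA null. Mmp3, a feeder marker, had a log2 change between -1.30 and 0.17 with 1 library left out (0.17 without WT replicate 1), against -0.57 with all libraries. The one-carbon median was -0.21 with quantile normalization, against -0.15. The other list medians moved by no more than the SD over their 4 library pairs with a median shift or quantile normalization, and 1569 of the named-gene results outside the left-out libraries kept direction and side of the threshold, while 70 passed it that had not. The cause of these shifts was not tested. Scaling moved the median of all genes by -0.03 at most. At 11049000 to 15272000 reads a library, the spread between replicates was well above that of read sampling in genes with at least 20 reads over both replicates.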
